A study of Homo sapiens with 6 samples.

Results

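The ends of protein-coding genes held 98608 of the 356720 accessibility summits in the 6 libraries, or 27.6%. A summit is the base of strongest signal in a peak of ATAC-seq, an assay in which a transposase cuts accessible DNA and the cut sites are sequenced. Summits were taken as members if the start or the far end of a protein-coding gene was at most 2000 bp away, by the RefSeq annotation of GRCh38.p14, which lists 20037 such genes on the 22 autosomes, X and Y. A gene with at least 1 such summit in a library was called open in that library. A gene that was not open had no called peak there, which is not proof of closed chromatin, because the files carry no read counts and the depth of each library is unknown.

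The cells were H1, an established line of human embryonic stem cells, grown in mTeSR1 medium on Matrigel. All of them carried a short hairpin RNA delivered by virus and were selected with puromycin. A pair of hairpins, shHNRNPU #1 and shHNRNPU #2, targeted HNRNPU, and the control hairpin, shLUC, targeted luciferase. Each hairpin had 2 libraries, called repeat 1 and repeat 2. No source used here gives the age of the cells after infection or says whether the repeats were separate cultures, so any p-value measures the spread between these libraries, which may be technical. HNRNPU encodes a nuclear protein that binds RNA and DNA and is counted among the components of the nuclear matrix, and the series asks what this protein and the matrix do in pluripotent cells.

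The start of a gene that is being transcribed, or is held ready for it, usually lies in a stretch with few nucleosomes, where the polymerase and its factors assemble. Many human gene starts lie in CpG islands, in which the dinucleotide CG is kept at a high density, and such starts are often accessible in every cell type. Starts that are poor in CG tend to be accessible only in the tissue that uses the gene. Genes of smell, skin barrier and immune defence are mostly of the latter kind, and pluripotent stem cells use few of them.

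The 6 promoter sequences that follow were chosen to show both ends of this range. PGK1 and TFB1M had the strongest gene-end summits in the series, MED27 and IL23A were open only with shHNRNPU, PLIN4 was open only with shLUC, and LCE1A belongs to a family that was never open. Each line holds the 250 bases before the gene start in the RefSeq sequence of GRCh38.p14, 5′ to 3′ on the strand of the gene, with every CG in capitals. The stretches are chrX:78103998-78104247 for PGK1 on the plus strand, chr6:155314485-155314734 for TFB1M on the minus strand, chr9:132079868-132080117 for MED27 on the minus strand, chr12:56338634-56338883 for IL23A on the plus strand, chr19:4518487-4518736 for PLIN4 on the minus strand and chr1:152827223-152827472 for LCE1A on the plus strand. The number of CG dinucleotides was 32 in PGK1, 22 in TFB1M, 13 in MED27, 3 in IL23A, 8 in PLIN4 and 2 in LCE1A.
PGK1: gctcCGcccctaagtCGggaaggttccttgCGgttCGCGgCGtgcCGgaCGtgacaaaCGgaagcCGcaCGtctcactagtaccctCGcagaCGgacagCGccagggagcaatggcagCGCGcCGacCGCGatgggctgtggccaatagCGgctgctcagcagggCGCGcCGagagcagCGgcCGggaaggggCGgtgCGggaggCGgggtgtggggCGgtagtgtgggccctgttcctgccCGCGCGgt
TFB1M: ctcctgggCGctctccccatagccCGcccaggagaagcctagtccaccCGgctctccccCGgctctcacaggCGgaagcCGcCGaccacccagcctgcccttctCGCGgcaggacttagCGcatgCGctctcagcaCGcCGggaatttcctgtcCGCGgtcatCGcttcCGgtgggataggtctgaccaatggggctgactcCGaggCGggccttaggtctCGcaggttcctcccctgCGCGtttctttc
MED27: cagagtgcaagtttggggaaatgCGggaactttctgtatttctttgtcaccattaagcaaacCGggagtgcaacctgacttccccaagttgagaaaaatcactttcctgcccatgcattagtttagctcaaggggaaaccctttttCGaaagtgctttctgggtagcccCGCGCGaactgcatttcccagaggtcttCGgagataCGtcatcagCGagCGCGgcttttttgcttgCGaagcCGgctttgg
IL23A: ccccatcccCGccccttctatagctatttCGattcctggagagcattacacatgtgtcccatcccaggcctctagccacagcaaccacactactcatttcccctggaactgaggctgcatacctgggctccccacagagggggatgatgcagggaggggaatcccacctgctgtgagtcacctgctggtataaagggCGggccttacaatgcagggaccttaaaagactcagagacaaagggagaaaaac
PLIN4: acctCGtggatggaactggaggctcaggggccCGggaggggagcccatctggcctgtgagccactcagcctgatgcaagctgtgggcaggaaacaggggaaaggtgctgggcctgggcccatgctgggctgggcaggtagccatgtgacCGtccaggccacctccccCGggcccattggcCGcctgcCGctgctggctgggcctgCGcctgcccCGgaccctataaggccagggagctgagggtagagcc
LCE1A: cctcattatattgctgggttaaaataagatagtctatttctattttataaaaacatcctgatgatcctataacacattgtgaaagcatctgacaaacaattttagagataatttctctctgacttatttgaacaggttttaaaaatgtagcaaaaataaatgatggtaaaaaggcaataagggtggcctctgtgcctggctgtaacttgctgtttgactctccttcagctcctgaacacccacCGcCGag

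Marker genes of the labelled cell type and of other cell types were looked up at their ends. Of 10 marker genes of pluripotent stem cells, 10 were open in all 6 libraries, among them POU5F1, SOX2, NANOG, LIN28A and DNMT3B. Of 14 marker genes of other cell types, 8 were open in no library, among them ALB, INS, HBB, HBA1, PTPRC and GFAP, while ACTA1, MYOD1, APOA1 and COL1A1 were open in all 6. The lineage genes TBXT, SOX17 and PAX6 were open in all 6 as well. Over all protein-coding genes, 68.5% were open in all 6 and 20.2% in none. An open end is not expression, so these counts do not identify the cell type. The ends of HNRNPU itself were open throughout, with 3 summits in repeat 2 of shHNRNPU #1 and 2 in every other library. Its best summit scored 47.5 and 42.0 with shHNRNPU #1, 41.7 and 41.8 with shHNRNPU #2, and 31.9 and 37.1 with shLUC, where the score is the authors' −log10 of the q-value of the peak. A hairpin acts on RNA, so these values do not check the knockdown, and scores were not scaled between libraries.

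Close to 3 in 4 protein-coding genes were open in each library. There were 15000 open genes in repeat 1 and 15109 in repeat 2 of shHNRNPU #1, 14838 and 14738 with shHNRNPU #2, and 14716 and 14760 with shLUC. These are 73.4% to 75.4% of all protein-coding genes. Repeat 2 of shHNRNPU #2 lay between the shLUC libraries, so the groups overlapped. The shHNRNPU libraries averaged 14921 ± 165 genes (SD, n = 4) and the shLUC libraries 14738 ± 31.1 (SD, n = 2), a difference of 183 genes that did not exceed the spread (exact permutation test, two-sided, 15 ways to choose the controls, p = 0.267). The p was taken as double the smaller tail, and with 4 against 2 libraries such an exact permutation test cannot go below p = 0.133. When only the 52168 best-scored summits of each list were kept, so that the lists had one size, the difference was 327 genes, and with scores of at least 5 it was 413. In both cases the groups no longer overlapped (exact permutation test, p = 0.133, n = 4 and 2). Within 5000 bp it was 90.5 genes (exact permutation test, p = 0.533), and without repeat 2 of shHNRNPU #1 it was 121.

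The lists differed in length, from 52168 summits in repeat 2 of shHNRNPU #2 to 63519 in repeat 2 of shHNRNPU #1, while the gene-end summits varied less, from 16003 to 16951. Their share was 28.4% and 26.7% with shHNRNPU #1, 28.0% and 30.7% with shHNRNPU #2, and 26.1% and 26.6% with shLUC (exact permutation test, p = 0.133, n = 4 and 2). The difference of 2.08 percentage points fell to 1.02 with lists of one size and to 1.33 without repeat 2 of shHNRNPU #2. The groups overlapped with scores of at least 5 and within 500 bp (exact permutation test, p = 0.267 in both) and with gene starts alone (p = 0.4). An open gene had on average at most 1.34 summits, and no gene had more than 6 in a library. The number of genes with exactly 1 summit did not overlap between groups, at 10873 and 10903 with shHNRNPU #1, 10932 and 11029 with shHNRNPU #2, and 10760 and 10759 with shLUC. The difference of 175 genes had the smallest p that the test allows (exact permutation test, p = 0.133, n = 4 and 2).

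Gene-end summits scored higher, and a larger share of them recurred, than among the summits elsewhere. Their median score was 14.1 to 17.5, against 5.74 to 6.73 for the summits elsewhere, higher in 6 of 6 libraries (two-sided exact sign-flip test over libraries, p = 0.03125). A summit of every other library lay within 250 bp of 61.2% to 64.6% of them, against 32.1% to 41.4% of the summits elsewhere, again higher in 6 of 6 libraries (exact sign-flip test, p = 0.03125). Both tests were chosen after these values had been seen. A place shared by all 6 libraries counts in each of them, so the 6 values are not independent in either test. Both p-values are the smallest that the sign-flip test allows with 6 libraries, and neither measures replication.

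Most of the signal at gene ends belonged to gene starts. The strand was known for 15842 genes that also had a promoter sequence, and the other 4195 were left out of all statements on starts. Of the open genes with a known strand, 95.7% to 96.3% had a summit within 2000 bp of the start. Among those longer than 4000 bp, whose ends are separate, 3.41% to 3.95% were open at the far end alone. This last share was 3.45% and 3.52% with shHNRNPU #1, 3.71% and 3.41% with shHNRNPU #2, and 3.79% and 3.95% with shLUC, so it was lower in all 4 shHNRNPU libraries (exact permutation test, p = 0.133, n = 4 and 2).

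Summits peaked between 100 and 50 bp upstream of the start in all 6 libraries, and 75.2% to 75.8% of those within 2000 bp lay within 500 bp. In these shares and those below, a summit near more than 1 start counted once for each start. The spread around that peak was not the same in every library. The 200 bp downstream of the start held 20.3% and 18.9% of the summits with shHNRNPU #1, 18.9% and 15.5% with shHNRNPU #2, and 13.8% and 15.03% with shLUC. Every shHNRNPU value was thus above those of shLUC, repeat 2 of shHNRNPU #2 by the least (exact permutation test, p = 0.133, n = 4 and 2). In the peak bin itself the groups overlapped, since the same library, at 15.4%, fell between the shLUC values of 15.7% and 14.9%, while the other shHNRNPU libraries had 11.7% to 12.9%.

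The same held for the 7330 genes with exactly 1 summit near the start in every library, so that the same genes were compared throughout. Of their summits, 24.4% and 22.4% lay in the 200 bp downstream of the start with shHNRNPU #1, 22.5% and 18.3% with shHNRNPU #2, and 15.6% and 17.5% with shLUC. The mean was 21.9% ± 2.60 (SD, n = 4) against 16.5% ± 1.37 (SD, n = 2), and the groups did not overlap (exact permutation test, p = 0.133). The median position moved little, from -51 to -57 bp with shHNRNPU and at -60 and -57 bp with shLUC. These windows were chosen after the distribution had been seen.

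**Figure D1:**
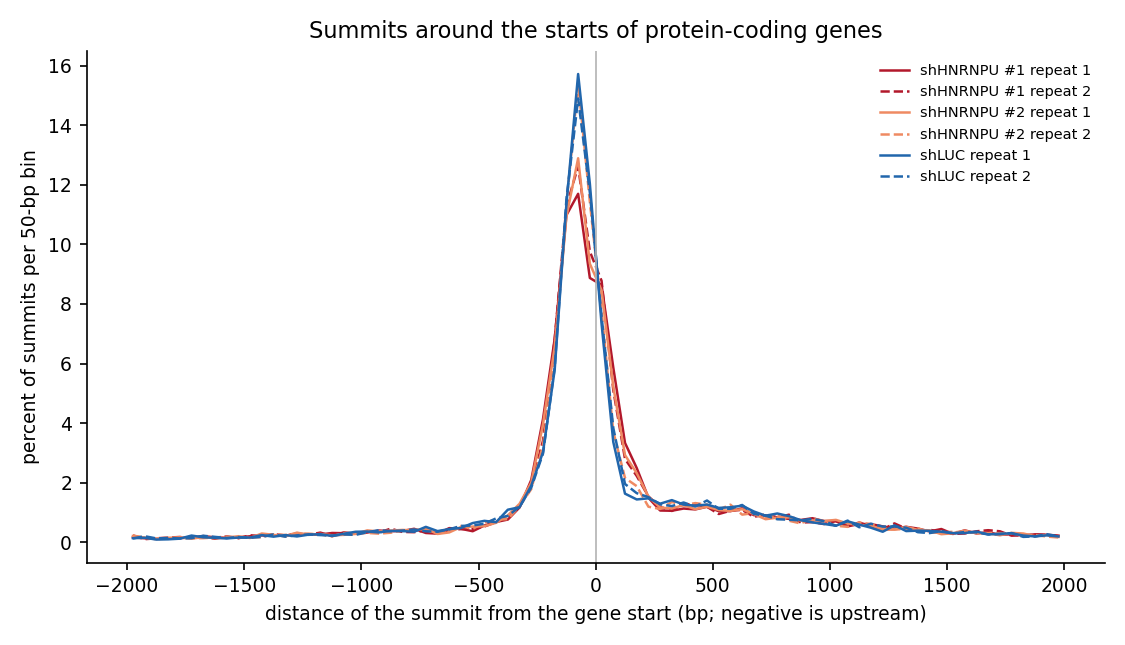
Distance of summits from the starts of protein-coding genes of known strand (horizontal axis, bp, negative upstream) against the percent of summits per 50-bp bin (vertical axis), with 1 line per library. A summit near more than 1 start counts once for each start. All 6 lines peak between 100 and 50 bp upstream. Summed over the 200 bp downstream of the start, the shHNRNPU lines hold 15.5% to 20.3% and the shLUC lines 13.8% and 15.03%, although single bins cross.

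Openness was close to all or none. Of the 20037 genes, 13721 (68.5%) were open in all 6 libraries and 4056 (20.2%) in none, which left 2260 (11.3%) open in 1 to 5. Of these last, 645 were open in a single library, 315 in 2, 283 in 3, 374 in 4 and 643 in 5. Genes open in every library but 1 most often lacked repeat 1 of shLUC (216 genes) or repeat 2 of shLUC (154 genes), against 27 to 107 for each shHNRNPU library. The genes open in all 6 stood far above the rest in score. The lowest percentile of the best summit, within the list of its own library, had a median of 77.5 for genes open in all 6, but of 11.2 to 19.2 for genes open in 1 to 5. Score and call rest on the same q-value, so a peak near the limit is easily missed in some libraries. This contrast therefore follows in part from the calling rule.

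The strongest gene end was that of PGK1, which encodes phosphoglycerate kinase of glycolysis. Its best summit scored 195 and 131 with shHNRNPU #1, 123 and 172 with shHNRNPU #2, and 231 and 200.2 with shLUC. Every shHNRNPU score was below both shLUC scores, on a scale that was not set between libraries. By percentile, the best summit ranked lower in every shHNRNPU library for 7.08% of all genes open in all 6. In all 6 libraries the summit fell on the same base, 173 bp upstream of the gene start and within the PGK1 sequence printed above. The PGK1 promoter is a common element of viral vectors, and the labels do not name the vector of the hairpins. Reads from a vector copy were not tested for. TFB1M, a mitochondrial rRNA methyltransferase, came next, with scores of 142, 142, 118 and 130.3 in the shHNRNPU libraries and 136 and 116 with shLUC. Its summits lay 134 to 158 bp upstream of the start.

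The 10 strongest also included SESN3 (a stress-response protein of the sestrin family), COQ10B (a coenzyme Q-binding protein), EPM2AIP1, RWDD1, OTUD6B and INTS4 (a subunit of the Integrator complex). The best summit of EPM2AIP1 scored 95.8 to 130.3. A summit could serve more than 1 gene. Between 17.7% and 18.1% of gene-end summits per library lay near 2 or more genes, and 3512 (25.6%) of the genes open in all 6 had no summit of their own in any library. Only 14 genes had the best summit at the same base in all 6, and over the genes open in all 6 its position ranged over a median of 132 bp.

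Genes with the most summits were of another kind. LOC124904106 on chromosome 17 had 26 over the 6 libraries, THBS3 (a thrombospondin of the extracellular matrix), PRR7 and DGKZ (a diacylglycerol kinase) had 25 each, and PTMA (prothymosin, a small nuclear protein) had 24. The best summit of LOC124904106, THBS3, PRR7 and DGKZ was at the far end in most libraries, and that of PTMA at the start.

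Only 33 genes were open in both shLUC libraries and in no shHNRNPU library, 0.165% of all genes and 10.5% of the 315 genes open in exactly 2 libraries. In the other direction 74 genes in 69 separate places were open in all 4 shHNRNPU libraries and in neither shLUC library, 0.369% of all genes and 19.8% of the 374 open in exactly 4. The requirement of 2 libraries and of 4 is not the same, so these counts cannot be set against each other. With repeat 1 of shLUC left out, 159 genes were open in the remaining shLUC library alone, and 157 with repeat 2 left out. The shHNRNPU count became 228 and 290 in the same order. Without repeat 1 or repeat 2 of shHNRNPU #1 the 33 genes became 50 and 56.

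Both sets lay low in the lists. The median of the lowest percentile was 14.9 for the genes open only with shLUC and 13.1 for those open only with shHNRNPU, close to the 11.2 and 13.7 of all genes open in exactly 2 and in exactly 4 libraries. Only KCNA2, FNDC7 and MED27 had their best summit above the median of the list in every library that held it. Absence within 2000 bp was often not absence nearby. A summit of an shHNRNPU library lay within 5000 bp of an end for 13 of the 33, and a summit of a shLUC library for 43 of the 74.

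KCNA2, a voltage-gated potassium channel of neurons (chr1:110593580-110631440, minus strand), led the genes open only with shLUC. Its summits lay inside the gene, around 471 bp from the start, with scores of 16.5 and 11.5, and no shHNRNPU summit lay within 11889 bp of its ends. FNDC7 followed with scores of 8.53 and 11.1, at 63 bp outside its lower end (chr1:108712908-108742749). GPR65, a proton-sensing receptor of leukocytes, had its summits near the far end, and CD300LB, a myeloid receptor, 839 bp upstream of its start. KRT83 encodes a hair keratin, PLIN4 a lipid-droplet protein, HPX the haem carrier of plasma and OTOL1 a collagen-like protein of the inner ear. LOC124901993 and LOC124901819 completed the 10. PLIN4 scored 4.94 and 4.93, with its best summits 38 and 92 bp upstream of the start, both inside the PLIN4 sequence above.

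Genes open only with shHNRNPU were led by MED27, a subunit of the Mediator complex that links transcription factors to the polymerase (chr9:131860112-132079867, minus strand). Its best summit scored 11.0 and 8.21 with shHNRNPU #1 and 8.19 and 11.1 with shHNRNPU #2. These summits lay between 2 bp upstream and 191 bp downstream of the start, next to the MED27 sequence above. The nearest shLUC summit lay 3818 bp from an end. MED27 made the Mediator family 30 open genes of 30 in each shHNRNPU library and 29 in each shLUC library.

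APOBEC3D, an antiviral cytidine deaminase on chromosome 22, had 2 summits in each of the 4 shHNRNPU libraries and 0 in both shLUC libraries. Its neighbour APOBEC3C also had 2 in each shHNRNPU library, with 0 and 1 with shLUC, and some of these summits serve both genes. The next gene, APOBEC3F, was open in all 6, with a best score of 12.9 to 24.3 with shHNRNPU and of 7.16 and 7.64 with shLUC. The groups did not overlap for APOBEC3F. They did for APOBEC3C, which in repeat 2 of shLUC scored 8.69, above 3 of the 4 shHNRNPU libraries. These scores were not scaled between libraries. By percentile, the best summit ranked higher in every shHNRNPU library for 14.9% of all genes open in all 6.

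FLNA, which encodes a crosslinker of actin and lies on the X chromosome, was also open with shHNRNPU alone but ranked below the 10 leading genes. Its best summit scored 8.83, 5.51, 4.04 and 5.81 in the shHNRNPU libraries. EMD, a gene close to FLNA that encodes emerin of the nuclear envelope, was open in all 6 with scores of 25.8 to 42.0.

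The 10 leading genes also included LIPE (hormone-sensitive lipase), FXYD6 (a regulator of the sodium pump), IL23A (a subunit of interleukin 23), SLC24A2 (a sodium-calcium exchanger of the retina and brain), GDNF (a neurotrophic factor), NEUROD2 (a neuronal transcription factor) and PLCB2 (a phospholipase). IL23A scored 7.16 and 5.44 with shHNRNPU #1 and 6.47 and 6.15 with shHNRNPU #2, with its best summits between 32 and 112 bp upstream of the start, inside the sequence above. SLC24A2 scored 11.2, 6.96, 6.02 and 5.89. FXYD6, GDNF and NEUROD2 had shLUC summits just beyond the limit, at 2583, 2432 and 2053 bp from an end.

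**Figure D2:**
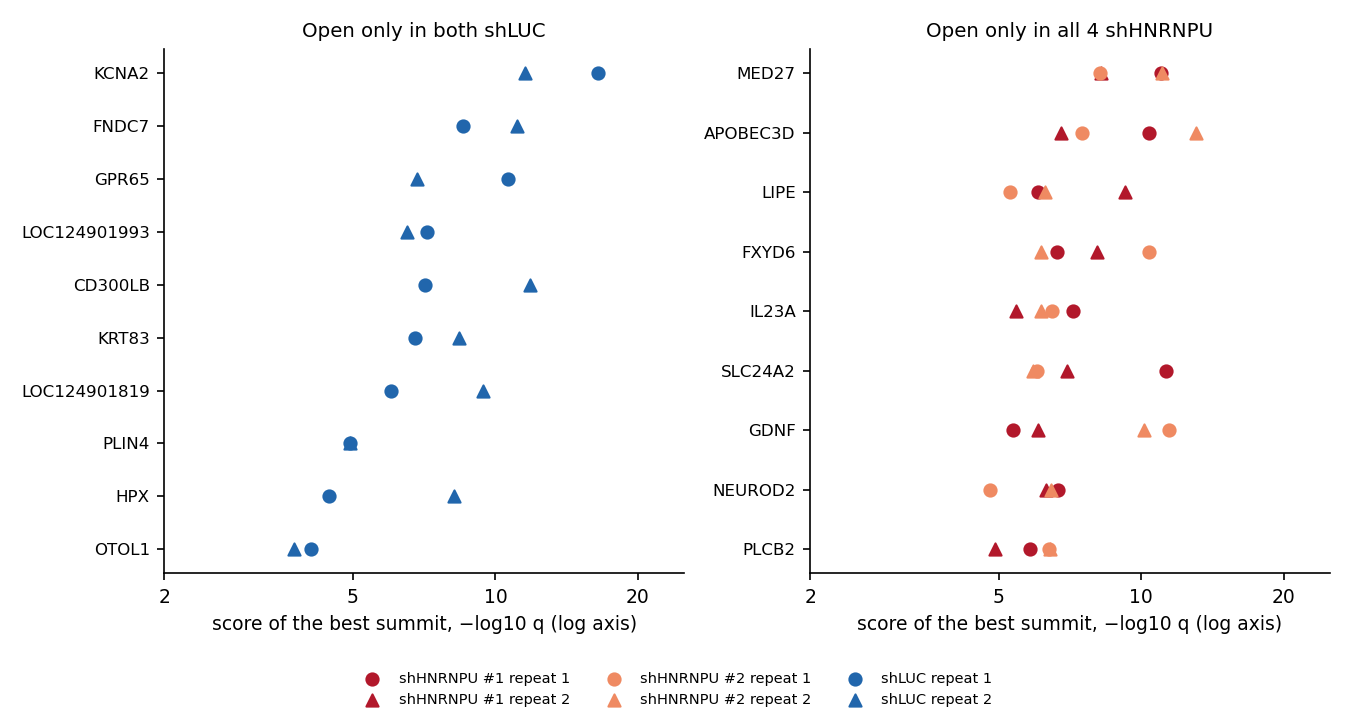
Score of the best summit (−log10 q, log axis) of the 10 leading genes open only in both shLUC (left) and of 9 of the 10 open only in all 4 shHNRNPU (right), with 1 symbol per library that held a summit. KCNA2 reached 16.5 in repeat 1 of shLUC, and most other values lay between 4 and 12.

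Few genes lay close to the limit of 2000 bp. Between 1900 and 2000 bp from an end lay 165 to 190 summits per library, and between 2000 and 2100 bp 154 to 191. From 55 to 77 genes per library were open through a summit just inside the limit alone, and 50 to 64 more would have become open with the limit at 2100 bp.

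Among the genes open in all 6, the best summit ranked higher, by percentile, in each shHNRNPU library than in either shLUC library for 2047 genes (14.9% of 13721) and lower for 972 (7.08%). Over all 20037 genes, 199 (0.993%) had more summits in every shHNRNPU library than in either shLUC library and 203 (1.01%) had fewer. A percentile depends on the other summits of its list, and the lists differed in length, so the first pair of counts describes rank and not signal.

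Gene families covered the whole range. The 71 families, defined by gene symbol, held 2896 genes. In the class of cell maintenance 91.7% of 529 genes were open in all 6, against 68.5% of all protein-coding genes, and in development 78.0% of 759. At the other end, 91.1% of 213 genes of germ-line and tandem-copy families, 89.8% of 443 sensory genes, 81.0% of 179 skin genes and 66.8% of 241 defence genes were open in no library, against 20.2% of all genes. Genes of differentiated tissues, such as crystallins and detoxification enzymes, lay between these, with 58.0% of 219 open in no library.

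Of the 70 families with 5 or more genes, 6 were never open in any library. They included the late cornified envelope proteins of the skin barrier (19 genes, from LCE1A on), the leukocyte immunoglobulin-like receptors (11 genes) and the PRAME family of germ cells and tumours (23 genes). The others were the GAGE and XAGE cancer/testis antigens (23 genes), the USP17-like deubiquitinases (25 genes) and a group of TSPY and other ampliconic genes (54 genes). Together the 6 families held 155 genes. The GAGE and XAGE and the ampliconic families lie mostly on X and Y, and were not among the never-open families with autosomes alone. Vomeronasal receptors were open in no library either but had only 3 genes.

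Many of these genes have near-identical copies, and how the authors treated reads that map to several places is not given in the sources used here. To describe this, promoters of 300 bases were searched for runs of 50 bases found in a promoter at another place. Such a run was present in 15 of 18 PRAME promoters, 16 of 23 GAGE and XAGE promoters and 18 of 20 ampliconic promoters. It was present in 3 of 18 late cornified envelope promoters and in 2 of 8 of the leukocyte receptors. No such count is given here for the USP17-like family. Over all genes the share was 0.715% of those open in all 6, 3.22% of those open in 1 to 5 and 15.4% of those open in none. Its part in the absence of summits was not tested.

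Families just short of this were led by the SPANX and SSX genes (18 of 19 never open), the olfactory receptors (362 of 392), the small proline-rich proteins of the skin (10 of 11), the beta-defensins (35 of 39), the MAGE genes (23 of 26) and the bitter taste receptors (22 of 25). Keratin-associated proteins of hair were never open for 77 of 94 genes, and type I interferons for 14 of 17. The 10 olfactory receptor genes open in all 6 were OR2B11, OR14A16, OR2AJ1, OR2L13, OR2V2, OR51D1, OR52N2, OR6A2, OR5A2 and OR1F1. Of these, 7 had a summit near no other protein-coding gene in some library.

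At the open end, the spliceosome Sm and SF3 proteins (20 genes) and the frizzled receptors of WNT signalling (10 genes) were open in all 6 without exception. Cytosolic ribosomal proteins were open in all 6 for 78 of 79 genes, mitochondrial ribosomal proteins for 74 of 77, tRNA synthetases for 33 of 34, Mediator subunits for 29 of 30 and glutamate receptors for 24 of 25.

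**Figure D3:**
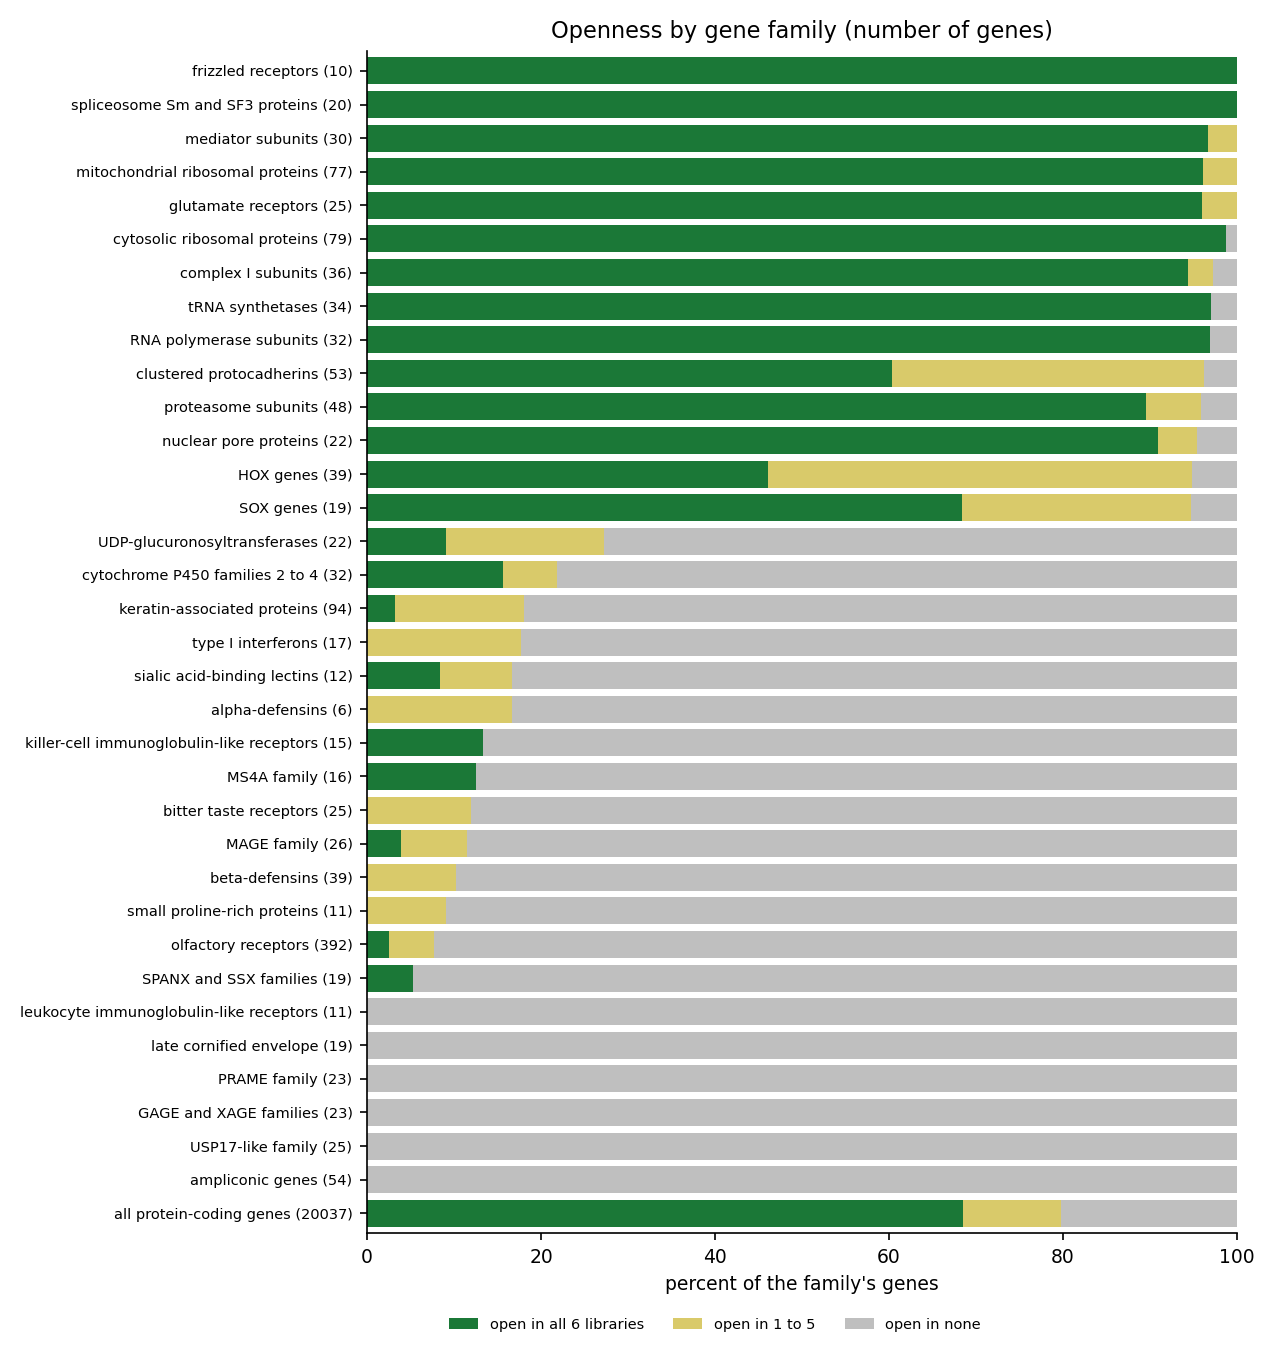
Percent of the genes of a family (horizontal axis) that were open in all 6 libraries, in 1 to 5 or in none, for the families at both ends of the range and for all 20037 protein-coding genes (lowest bar), with the number of genes in parentheses. The 6 families drawn wholly in grey had no open gene in any library.

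Of the 27 never-open genes of cell maintenance, 6 had a summit inside the gene in all 6 libraries, among them NUP35, PSMG4, FARS2, NDUFA5 and EIF4ENIF1. A further 10 were replication-dependent histone genes and 5 were HNRNP paralogs (HNRNPCL1 to HNRNPCL4 and HNRNPA1L3). Over all 4056 never-open genes, 1358 (33.5%) had a summit inside the gene in some library and 834 (20.6%) in all 6. A start of another listed transcript of the gene had a summit nearby for 440 of them in some library. For these genes, never open holds for the outermost annotated ends and not for the whole gene.

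In a few families the groups did not overlap in the number of open genes. In 5 of 71 families (7.04%) every shHNRNPU library had more open genes than either shLUC library, and in 2 (2.82%) fewer. With only 15 ways to choose the controls, such an order is not rare without any difference. These shares are therefore no result about the families, and the counts below are descriptions. The 5 were the HOX genes, the SOX genes, the clustered protocadherins, the Mediator subunits and the trypsins and chymotrypsins. The 2 were the olfactory receptors and the UDP-glucuronosyltransferases.

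HOX genes, which encode the transcription factors of body-axis patterning, were among the 5. Of 39 HOX genes, 31 and 31 were open with shHNRNPU #1, 28 and 32 with shHNRNPU #2, and 24 and 26 with shLUC. The mean was 30.5 ± 1.73 (SD, n = 4) against 25.0 ± 1.41 (SD, n = 2). Groups that do not overlap always have the smallest p that the test allows (exact permutation test, p = 0.133). The family is described here because of that order, so this p only restates it. With scores of at least 5, with lists of one size and with a distance of 5000 bp that p was not reached (exact permutation test, p = 0.267 in each case), and the difference of 5.50 genes became 6, 5.25 and 5.50. In all, 18 HOX genes were open in all 6, 19 in 1 to 5 and 2 (HOXC8 and HOXC9) in none. HOXD10 alone was open in all 4 shHNRNPU libraries and neither shLUC library, with scores of 7.89, 14.1, 10.6 and 4.17. Its scores of 14.1 and 10.6 were also the best scores of HOXD11 in those libraries, and HOXD11 was open in all 6. The nearest shLUC summit lay 2440 bp from an end of HOXD10. HOXA2, HOXA7, HOXB4, HOXB7 and HOXB8 were each open in 3 shHNRNPU libraries and neither shLUC library. In the opposite direction, HOXC12 was open only in repeat 2 of shLUC. HOX genes lie close together, so a summit can serve neighbours, as in HOXB7 and HOXB8, which were open in the same libraries.

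Clustered protocadherins are adhesion proteins of neurons whose genes stand in tandem arrays, and single neurons use different combinations of them. Of 53, 45 and 45 were open with shHNRNPU #1, 45 and 44 with shHNRNPU #2, and 41 and 41 with shLUC. Again the p (exact permutation test, p = 0.133, n = 4 and 2) only restates that the groups did not overlap. A summit can serve several neighbours here too, so these are not counts of separate places. PCDHGA1, PCDHGA2 and PCDHGA12, for example, had the same best score in every library. Of the 32 genes open in all 6, 22 had a summit near no other protein-coding gene in some library, and 14 in every library. PCDHA1 and PCDHA7 were open only in all 4 shHNRNPU libraries, and PCDHA6 and PCDHB13 only in both shLUC libraries. PCDHA5 and PCDHB6 were open in no library. The difference of 3.75 genes became 6.25 with scores of at least 5 and 2.50 within 500 bp.

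SOX genes, a family of developmental transcription factors that includes SOX2, were open for 18 and 18 of 19 genes with shHNRNPU #1, 16 and 17 with shHNRNPU #2, and 15 and 15 with shLUC. SOX18 was open in both shHNRNPU #1 libraries and in no other, and SOX10 and SOX7 were open in every library but repeat 1 of shLUC. Trypsins and chymotrypsins had 4, 4, 3 and 3 open genes of 18 with shHNRNPU and 2 and 1 with shLUC. Olfactory receptors had 15, 13, 14 and 11 open genes with shHNRNPU and 16 and 20 with shLUC. This difference of -4.75 genes shrank to -0.50 with scores of at least 5, to -1.25 with lists of one size and to -0.25 within 500 bp. UDP-glucuronosyltransferases, enzymes of detoxification, had 3 in each shHNRNPU library and 6 and 4 with shLUC. Other developmental families overlapped between groups, such as the FOX genes with 42, 42, 42 and 40 of 52 open with shHNRNPU and 38 and 40 with shLUC.

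**Figure D4:**
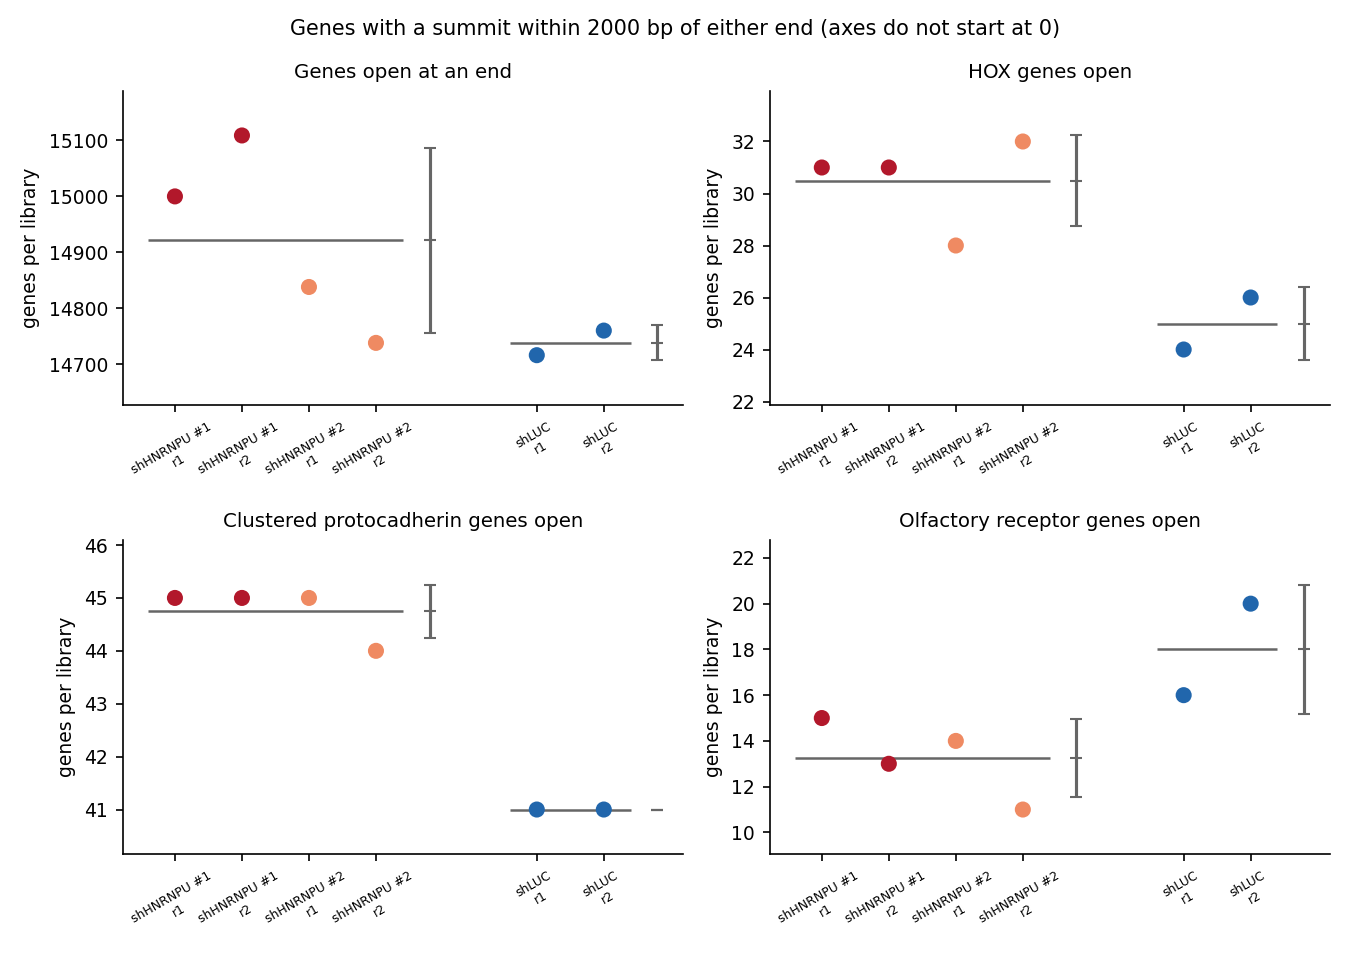
Number of open genes per library among all protein-coding genes, HOX genes, clustered protocadherins and olfactory receptors, with a point per library, lines at the group means and bars of ± 1 SD beside them (n = 4 and 2), on axes that do not start at 0. The groups overlap for all genes and do not overlap for the other panels, where HOX genes had 28 to 32 open with shHNRNPU and 24 and 26 with shLUC.

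Openness followed the CG content of the promoter. The measure was the ratio of observed to expected CG dinucleotides over 300 bases, from 250 before to 50 after the start, in RefSeq sequences of 15842 genes. Its median was 0.836 for genes open in all 6, 0.390 for those open in 1 to 5 and 0.244 for those open in none, against 0.761 for all. The share of genes open in all 6 rose from 17.6% of 1991 genes with a ratio under 0.2 to 31.6%, 61.0% and 85.4% in the following bins of 0.2, and to 91.7% of 6993 genes at 0.8 or above. The median GC content was 65.3%, 57.3% and 49.3% in the same order as the medians.

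The genes open only with shHNRNPU had a median ratio of 0.534 over 49 promoters, and those open only with shLUC one of 0.319 over 25, beside 0.411 and 0.309 for all genes open in exactly 4 and in exactly 2 libraries. Olfactory receptors had a median of 0.122 and cytosolic ribosomal proteins of 0.914. The 7 promoters of olfactory receptors open in all 6 had a median of 0.260. Among the never-open families the medians were 0.135 for the late cornified envelope, 0.182 for PRAME, 0.206 for the leukocyte receptors and 0.444 for GAGE and XAGE. The ampliconic genes had 0.624 over 20 promoters, which is above that of most never-open genes. No median is given for the USP17-like family.

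Short motifs were searched on both strands of the same 300 bases. The GC box bound by SP factors (GGGCGG) was in 70.8% of promoters open in all 6, in 41.4% of those open in 1 to 5 and in 21.2% of those open in none, against 58.3% of all promoters. The ETS motif (CCGGAAG) was in 18.3%, 4.90% and 3.72% in that order, against 14.2% of all. The TATA box (TATAAA) ran the other way, at 5.86%, 13.6% and 22.2%, against 9.75% of all. The CCAAT box differed little, at 36.7%, 30.7% and 38.5%, but was in all 18 PRAME promoters. Motifs that hold CG are more frequent in CG-rich sequence whatever the gene, and the matches are descriptions of sequence.

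**Figure D5:**
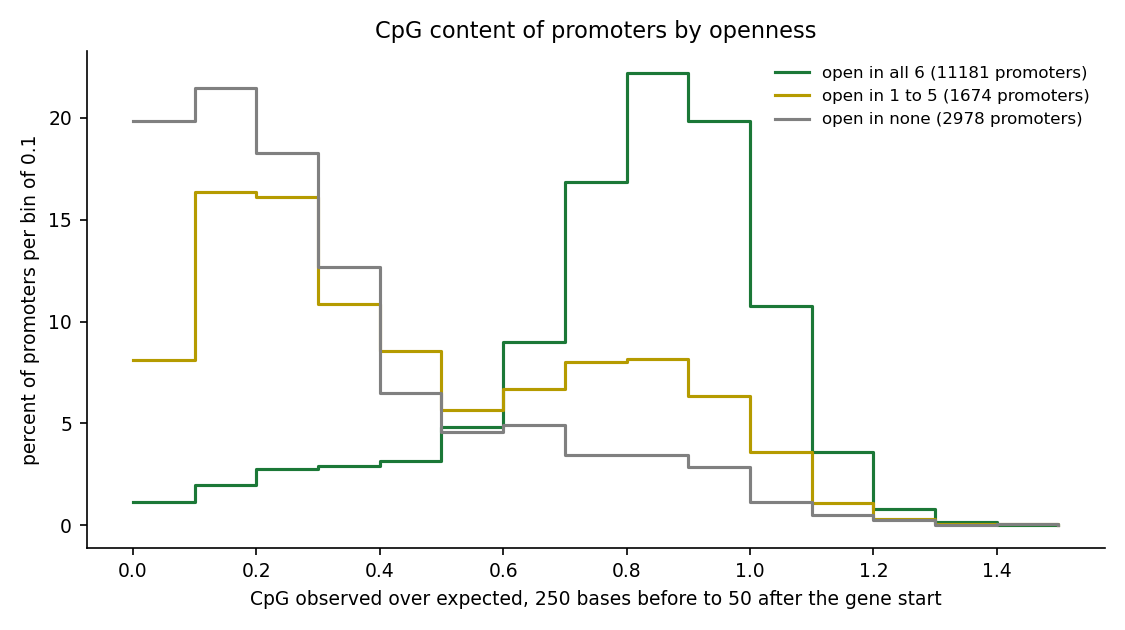
Distribution of the CG ratio of promoters (horizontal axis, observed over expected) as percent of promoters per bin of 0.1, for genes open in all 6 libraries, in 1 to 5 and in none. Promoters open in all 6 centre near their median of 0.836 and those open in none near 0.244, while those open in 1 to 5 spread over both ranges, and 9 promoters with no ratio or one of at least 1.6 are not drawn.

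Genes open in all 6 were also longer, with a median length of 30147 bp against 18016 bp for genes open in 1 to 5 and 11466 bp for genes open in none. Local gene density, counted as gene midpoints within 500 kb, had medians of 11, 13 and 13 in the same order. Genes open only with shHNRNPU lay at a median density of 17 and those open only with shLUC at 10. For all genes open in exactly 4 and in exactly 2 libraries the median was 14 in both cases.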

How the data were processed

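The data were ATAC-seq libraries of H1 cells, 6 in all, grouped by the titles of the samples into shHNRNPU #1, shHNRNPU #2 and shLUC with 2 each. The authors deposited 1 list of summits per library. The submitters' processing notes name cutadapt, Bowtie2, SAMtools, MACS2, deepTools and the build hg38, and further settings are not given in the sources used here. The deposited score was taken as the −log10 of the q-value of a peak, since the lowest is 1.301, which matches a limit of 0.05. The lists hold no counts, so depth and detection limits are unknown, and scores were ranked only within a list.

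Distances were measured to the outermost annotated ends of genes, and percentiles were taken by score within a list. Means were compared by exact two-sided permutation tests, with p as double the smaller tail. No test took genes or families as its units, and the p-values printed for counts of open genes in a family compare libraries. The 10 named genes per set were those with the highest value of the lowest percentile over the libraries that held them, and genes named beside them were chosen after their values were seen. The members, families and lists were chosen with earlier results of these data known. Assignment of summits to genes was tested on simulated data. Alternatives were a minimum score of 5, lists of one size, distances of 500 and 5000 bp, gene starts alone, autosomes alone, absence within 5000 bp, permutation within repeats and leaving out each library. The versions were 2.4.6 of numpy, 2.3.3 of pandas, 1.17.1 of scipy, 3.10.9 of matplotlib and 3.11.15 of Python. A few genes that met these rules are not reported here.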

Additional observations from a re-analysis of the deposited data

Results flagged for a closer look

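Of 18 measures compared over the libraries, 3 stood out. The mean number of summits per open gene was higher than in both shLUC libraries with shHNRNPU #1 and lower with shHNRNPU #2, with a difference of 0.0291 between the hairpins, which was not tested. The number of genes with exactly 2 summits had the same order, at 3408 and 3414 with shHNRNPU #1, 3348 and 3344 with shLUC and 3257 and 3117 with shHNRNPU #2, a difference of 224 genes between the hairpins that was not tested either. The lists of shHNRNPU #1 were also longer than those of shHNRNPU #2, at 59055 and 63519 against 58414 and 52168 summits, and the part of list length was not tested. Repeat 2 of shHNRNPU #2 had 44 open clustered protocadherin genes where the other 3 shHNRNPU libraries had 45, a gap of 1 gene that stands apart only because the others were equal. Chance marks about 1 in 20 groups in this way.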

How the results depend on the processing

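Of 150 values recomputed under the alternatives, 131 kept their direction or stayed within 1.5 times, 14 counts moved further and 5 differences reversed. All reversals were of summits per open gene, whose difference of 0.00185 was near 0. It became -0.00396 within 500 bp and -0.0118 with gene starts alone, and ranged from -0.00451 to 0.00951 as each library was left out. The 33 genes open only in both shLUC became 21 with gene starts alone and 20 with absence judged within 5000 bp, and ranged from 40 to 159 without 1 library. The 74 genes open only in all 4 shHNRNPU became 121 with scores of at least 5, 49 with the distance at 5000 bp and 31 with absence judged within 5000 bp, and ranged from 83 to 290 without 1 library. A pattern asked of fewer libraries is met by more genes. For the other changes the cause was not tested.

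Of the named genes, chosen after seeing the data as a set to follow, 2 of the 10 shLUC genes and 5 of the 10 shHNRNPU genes kept their pattern within 500 bp, and 7 and 1 within 5000 bp. The HOX difference of 5.50 genes ranged from 4.75 to 6 under other scores, list sizes and distances, where 3 of 4 settings did not reach the smallest p (exact permutation test, p = 0.267), and from 4.50 to 6.50 without 1 library, alternatives added after seeing the data. Never-open families numbered 7 with scores of at least 5 and 8 within 500 bp, with the alpha-defensins added in both and the killer-cell receptors in the latter, and 5 within 5000 bp, without the leukocyte receptors.

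Repeat numbers are shared by the groups, but no label says that a number marks a shared culture or day. Over the 13721 genes open in all 6, the deviations of the percentile of the best summit from the group mean correlated between same-numbered libraries by -0.0356, -0.00491 and -0.0111, across genes, so the numbers were not taken as pairs. With the replicate block, permuting within repeats, the differences stayed the same and the smallest possible p was 0.222. The exact p was 0.444 for the 183 open genes, 1.00 for summits per open gene, 0.222 for the difference of 2.08 percentage points in gene-end summits and 0.222 for that of 0.367 points in open genes with a summit at the start.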
